A study of Mus musculus with 8 samples.

Results

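Cholangiocyte markers and epithelial keratins were followed across 4 groups of mouse liver. The group holds 8 genes chosen by name, Sox9, Epcam, Cldn4, Krt19, Krt7, Krt23, Krt8 and Krt18, out of 23006 genes in the count table. Each was found by matching its symbol through the GENCODE annotation to the Ensembl identifier of a row, and all 8 were among the 16876 genes that passed the filter on low counts. The livers came from mice labelled WT, with 2 RNA-seq libraries per group. Control mice received PBS, and SLIT2 mice received the secreted guidance protein SLIT2 by intraperitoneal injection at 2 µg per mouse for 3 days. APAP mice received PBS and acetaminophen, a drug that injures hepatocytes in overdose, at 400 mg/kg. SLIT2+APAP mice received both agents, and livers were taken 24 h after acetaminophen. The labels give no strain, sex or age, and whether both libraries of each group come from different mice is not stated; p-values measure the spread between these libraries, which may be technical.

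Bile ducts are lined by cholangiocytes, a small minority of liver cells beside hepatocytes. Keratins build intermediate filaments as pairs of a type I and a type II chain. Hepatocytes make the simple pair Krt8 (type II) and Krt18 (type I), while cholangiocytes also make Krt7 (type II) and Krt19 (type I). Sox9 is a transcription factor of duct cells that injured hepatocytes can also switch on. Epcam is an adhesion protein of duct epithelium, Cldn4 is a tight junction claudin, and Krt23 is a further type I keratin. Because whole liver was sequenced, fewer cells of a type and less RNA per cell cannot be told apart.

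Library totals ran from 60.8 to 100.5 M counts. Both SLIT2 libraries stood apart. Their mitochondrially encoded genes took 64.6% ± 6.19 of counts (SD, n = 2), against 16.6% ± 0.9 in control, 14.1% ± 1.02 in APAP and 27.7% ± 3.66 in SLIT2+APAP, which left 18.9 and 25.1 M counts outside those genes in SLIT2 and 80.2 and 83.2 M in control. The 10 hepatocyte markers, all detected in every library, summed to 58797 and 79140 CPM (counts scaled by TMM library size) in control, 111010 and 93877 in APAP, 71078 and 68507 in SLIT2+APAP, and 16115 and 8769 in SLIT2. Skeletal muscle markers summed to 752 and 81.9 CPM in the control libraries and to at most 1.35 CPM in the other 6. The 2 APAP libraries differed from each other more than the pair of any other group, with a median absolute log2 difference over genes of 0.32, against 0.11 in control, 0.22 in SLIT2 and 0.12 in SLIT2+APAP. The part of these features in the results below was not tested.

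Compared per kilobase of exon, Krt8 and Krt18 were by far the most abundant of the 8 genes. In control liver Krt8 stood at 98.8 ± 18.2 CPM per kb and Krt18 at 88.8 ± 12.9 (mean ± SD, n = 2), and these ranges overlapped. Sox9 followed at 1.07 ± 0.227 CPM per kb. On this scale Krt7 at 0.416 ± 0.22, Krt19 at 0.36 ± 0.036, Krt23 at 0.343 ± 0.096 and Epcam at 0.315 ± 0.0765 did not differ beyond their spread. Exon length here takes in every annotated exon of a gene, 7049 bases for Krt7 and 1855 for Krt19. In CPM, Krt7 had 1.84 and 4.03 in control, above the 0.715 and 0.62 of Krt19 and overlapping the 5.10 and 3.77 of Sox9. Cldn4, at 0.0382 ± 0.0295 CPM per kb, was the lowest. The labelled group of cholangiocyte markers is therefore detected in these libraries at low levels, and most of the signal of the 8 genes is the hepatocyte keratin pair.

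**Figure D1:**
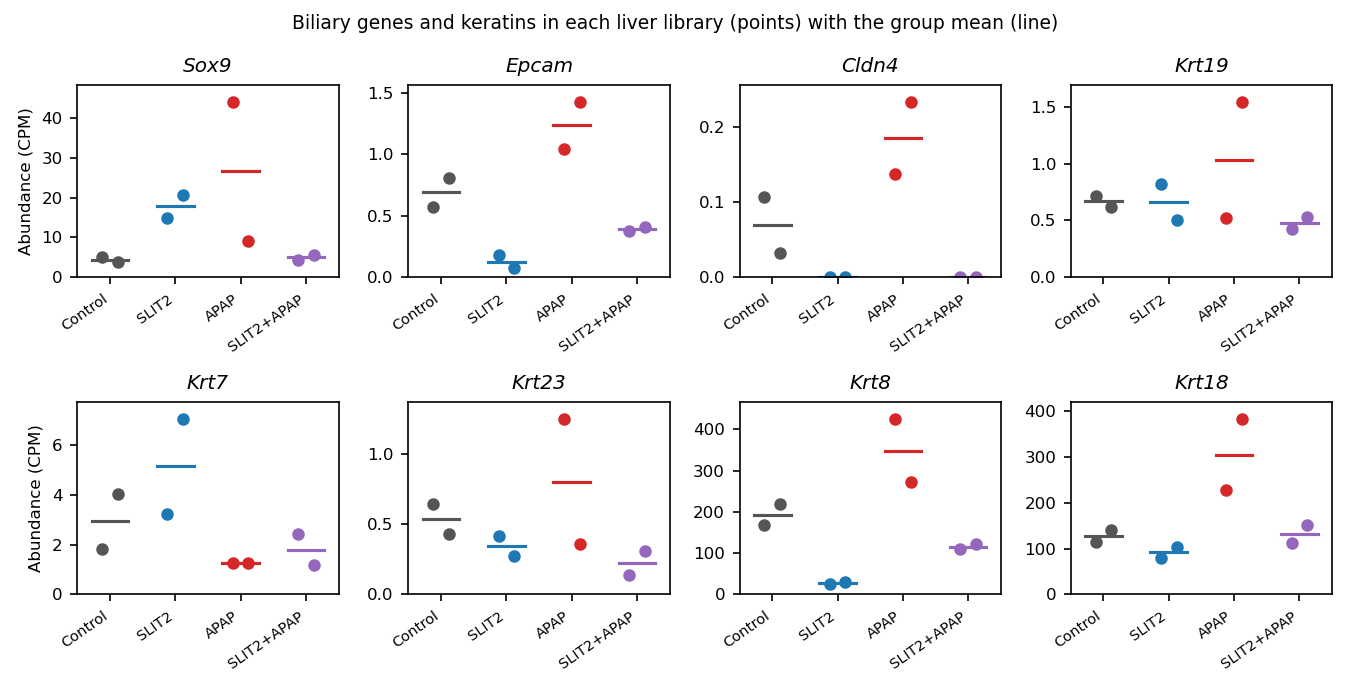
Abundance in CPM (vertical axis, linear, a separate scale per gene) of the 8 genes in each of the 8 liver libraries (points), with the mean of each group (lines). Krt8 is lowest in the 2 SLIT2 libraries at 24.3 and 29.4 CPM, Sox9 reaches 44.2 CPM in 1 APAP library, and Cldn4 is at 0 in all 4 libraries from SLIT2-treated mice.

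In mice given SLIT2 before acetaminophen, Sox9, Epcam, Krt8 and Krt18 were called lower than after acetaminophen alone, 4 of the 7 genes other than Cldn4. Cldn4 was called lower too, but it entered the test only through its counts in the APAP libraries, so its call is not counted here. Over all genes tested, 7.63% were called lower and 6.28% higher in that comparison (edgeR quasi-likelihood test, Benjamini-Hochberg adjusted p under 0.05, the rule for every call here). The median log2 fold change of those 7 was -1.59, against -0.06 for all genes. Krt19 (-1.12 ± 0.55), Krt23 (-1.8 ± 0.7) and Krt7 (0.49 ± 0.55) were not called; the value of Krt23 was as large as those of called genes, with a wider error. With the SLIT2-only libraries left out of the fit, Krt8 alone of the 8 was called (log2 fold change -1.54, adjusted p = 0.02835 against 1.339e-05 to 0.1444 over 19 alternatives).

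After acetaminophen alone, 0 of the 8 genes were called against control, where 0.332% of all genes were called higher and 0.456% lower. Sox9, Krt8 and Krt18 had unadjusted p under 0.05, as had 4149 of the 16876 genes tested. DESeq2 called 2 of the 8, Sox9 and Krt18, among 1836 calls over all genes. The median log2 fold change of the 8 was 0.84, against 0.05 for all genes. After SLIT2 alone, 1 gene was higher (Sox9) and 2 were lower (Epcam and Krt8), in a comparison where 27.3% of all genes were called higher and 27.6% lower; 3 of 8 is below the background share of genes called there. The median of the 8 was -0.55 (the same with Cldn4 at its bound), against 0 for all genes. Between SLIT2+APAP and control, 0 of the 8 were called by edgeR, with 0.693% of all genes called higher and 1.45% lower. DESeq2 called 0 of the 8, among 1455 calls over all genes. In edgeR 2 of the 8, Krt8 and Cldn4, had unadjusted p under 0.05, as had 3445 of the 16876 genes tested. APAP enters both the comparison with control and the one with SLIT2+APAP, and control likewise enters 3 comparisons, so their fold changes are not independent. Under scaling to library totals the all-gene medians moved to 0.16 (APAP against control), 0.12 (SLIT2+APAP against APAP) and 0.34 (SLIT2+APAP against control), and the share of calls that were higher went from 42.1 to 61.3%, from 45.1 to 60.9% and from 32.4 to 68.5%.

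Krt8 (ENSMUSG00000049382, chr15:101996698-102004482 on the minus strand of GRCm38) and Krt18 (ENSMUSG00000023043, chr15:102028180-102032027, plus strand) lie 23697 bases apart and point away from each other. The bases just before each annotated start are shown because the partners did not change alike; both come from RefSeq promoters on GRCm38.p6, written 5′ to 3′ on the strand of the gene.
Krt8 (chr15:102004483-102004592, 110 bases): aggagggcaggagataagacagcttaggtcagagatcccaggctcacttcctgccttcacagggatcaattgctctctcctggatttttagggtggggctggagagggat
Krt18 (chr15:102027966-102028179, 214 bases): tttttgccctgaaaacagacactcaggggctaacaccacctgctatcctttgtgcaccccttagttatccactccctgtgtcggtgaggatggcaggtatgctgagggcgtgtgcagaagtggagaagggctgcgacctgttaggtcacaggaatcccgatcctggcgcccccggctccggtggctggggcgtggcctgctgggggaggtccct
A search of both strands of the 250-base RefSeq windows, which extend past the bases shown, found none of the motifs named next in either gene. The TATA box, spelled TATAAA, was present in 12.4% of 32851 promoters of 250 bases. The CCAAT box was present in 33.8% of them. The GC box, spelled GGGCGG, was present in 32.7%. The AP-1 site, spelled TGANTCA, was present in 6.75%.

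Krt8 had 168 and 218 CPM in control, 424 and 271 in APAP, 109 and 121 in SLIT2+APAP, and 24.3 and 29.4 in SLIT2. No group overlapped another, and the order was APAP, control, SLIT2+APAP, SLIT2. Against control, Krt8 fell by 2.85 ± 0.3 on the log2 scale with SLIT2 alone (SE; adjusted p = 0.0002033) and was called in all 20 alternatives, from -3.06 to -2.6. In SLIT2+APAP it fell by 1.59 ± 0.28 against APAP (adjusted p = 0.01441), a call made in 16 of 19 alternatives and lost when either SLIT2+APAP library was left out (adjusted p = 0.1203 and 0.1444). The difference between APAP and control, 0.85 ± 0.28 (adjusted p = 0.1243), was not called, nor was that between SLIT2+APAP and control, -0.74 ± 0.28 (adjusted p = 0.1844). Without the APAP 4 library the first became 1.12 and was called (adjusted p = 0.01268, over a range of 0.01268 to 0.5303), and without APAP 3 the second was called at -0.75 (adjusted p = 0.04974, over a range of 0.01806 to 0.6643).

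Krt18 had 114 and 141 CPM in control, 79.6 and 104 in SLIT2, 111 and 151 in SLIT2+APAP, and 227 and 382 in APAP. The APAP libraries lay above the other 6 and the SLIT2 libraries below them, while control and SLIT2+APAP overlapped. SLIT2+APAP was lower than APAP by a log2 fold change of -1.22 ± 0.32 (adjusted p = 0.0411), a call kept in 1 of 8 fits that left out a library (the one without APAP 3) and in 8 of 19 alternatives in all. The value without APAP 4 was -0.78 (adjusted p = 0.06297, over a range of 0.004161 to 0.2541). Krt18 differed from control by -0.47 ± 0.31 with SLIT2 (adjusted p = 0.2314), by 1.26 ± 0.32 with APAP (0.08189) and by 0.04 ± 0.31 with both (0.9647). The partner keratins thus stood at -2.85 and -0.47 with SLIT2 alone.

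The ratio of Krt8 to Krt18 counts within a library shows the same data without any scaling between libraries. Per exon length it was 1.08 and 1.14 in control, 0.224 and 0.207 in SLIT2, 1.37 and 0.521 in APAP, and 0.722 and 0.591 in SLIT2+APAP. The group means were 1.109 ± 0.0432, 0.215 ± 0.0125, 0.945 ± 0.600 and 0.656 ± 0.0929 (SD, n = 2). SLIT2 lay below every other group and SLIT2+APAP below control, while the 2 APAP libraries fell on either side of 1 and their range took in control and SLIT2+APAP. With 2 libraries against 2, the smallest two-sided p of an exact permutation test is 0.333, and the ratio is given as a description with no test. A lincRNA, Gm36026, overlaps Krt8 on the opposite strand and an antisense gene, Gm671, overlaps Krt7, and neither of these neighbours has a row among the counted genes. The strand setting of the counting is not given in the sources used here, so the reads of each pair cannot be told apart.

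**Figure D2:**
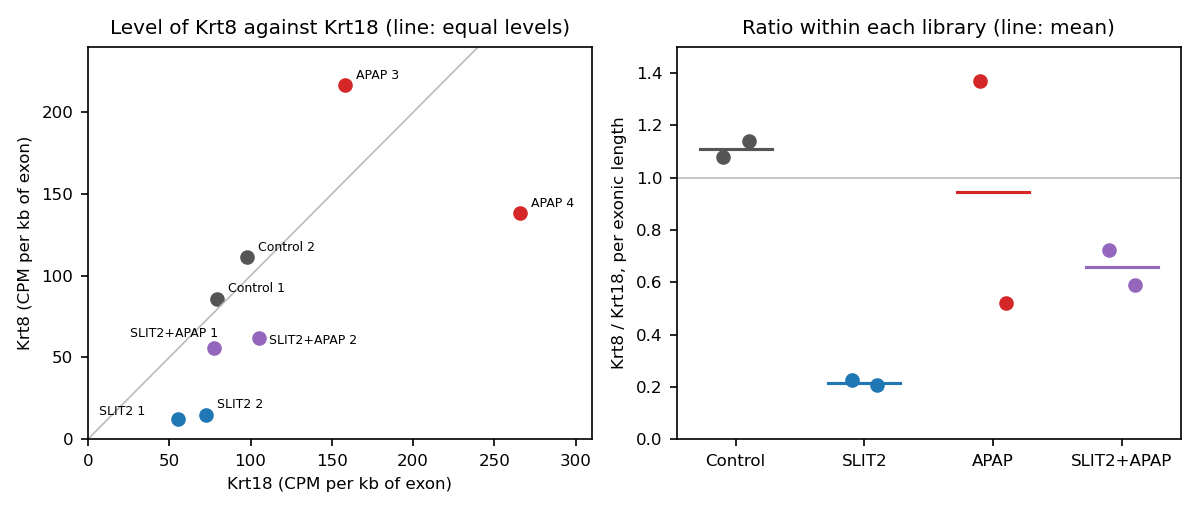
Left, the level of Krt8 (vertical axis) against Krt18 (horizontal axis) in CPM per kb of exon for the 8 libraries, with a line where both are equal. Right, the ratio Krt8/Krt18 per exonic length in each library (points) with group means (lines); SLIT2 lies at 0.215, control at 1.109, and the 2 APAP libraries at 1.37 and 0.521.

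Sox9 (ENSMUSG00000000567, chr11:112782224-112787760, plus strand) had 5.10 and 3.77 CPM in control, 14.9 and 20.7 in SLIT2, 44.2 and 9.18 in APAP, and 4.32 and 5.67 in SLIT2+APAP. Each agent alone thus gave higher values than control in both libraries, whereas SLIT2+APAP overlapped control. With SLIT2 alone the log2 fold change was 2.01 ± 0.63 (adjusted p = 0.02644); the call was lost without either control or either SLIT2 library, where the value stayed between 1.78 and 2.2 (adjusted p from 0.06186 to 0.1181). With acetaminophen it was 2.59 ± 0.64 (adjusted p = 0.07905), and 1.05 without APAP 3 and 3.3 without APAP 4 (adjusted p = 0.4216 and 0.0002033, the ends of the range over alternatives). SLIT2+APAP stood 2.41 ± 0.63 below APAP on the log2 scale (adjusted p = 0.04249). The size of that difference depended on the APAP libraries, at -0.88 without APAP 3 and -3.13 without APAP 4. The call was lost in every fit that left out a library other than APAP 4.

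Whether the effect of acetaminophen differed with SLIT2 was tested as an interaction. Of the 8 genes, 1 was called lower, Sox9 at -4.42 ± 0.89 (adjusted p = 0.01215), and 1 higher, Krt8 at 1.26 ± 0.39 (adjusted p = 0.04597), where 13.4% of all genes were called lower and 15.5% higher. For Sox9 the value ran from -5.09 to -2.85 when libraries were left out in turn, and 5 of those 8 fits called it; it was -2.85 without APAP 3, and the call was lost without Control 2, SLIT2 2 or SLIT2+APAP 1. For Krt8 it ran from 1.03 to 1.65, and 2 of the 8 fits called it, those without APAP 3 and APAP 4. For Krt18 the interaction was -0.75 ± 0.44 (adjusted p = 0.227), and for Epcam, Krt19, Krt7 and Krt23 it lay between -1.17 and 0.76 with none called.

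Epcam and Cldn4 are the cell-contact proteins of the group. Their promoters are shown because both genes were lower in the 4 libraries from SLIT2-treated mice than in the other 4; capitals mark motif matches, and the sequences are the 250 bases before each annotated start, from RefSeq on GRCm38.p6.
Epcam (chr17:87635729-87635978, plus strand): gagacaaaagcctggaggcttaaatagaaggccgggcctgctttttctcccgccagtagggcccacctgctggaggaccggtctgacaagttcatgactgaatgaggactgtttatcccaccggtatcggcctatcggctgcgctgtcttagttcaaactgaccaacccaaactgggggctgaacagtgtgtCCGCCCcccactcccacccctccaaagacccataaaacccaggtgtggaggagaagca
Cldn4 (chr5:134946935-134947184, minus strand): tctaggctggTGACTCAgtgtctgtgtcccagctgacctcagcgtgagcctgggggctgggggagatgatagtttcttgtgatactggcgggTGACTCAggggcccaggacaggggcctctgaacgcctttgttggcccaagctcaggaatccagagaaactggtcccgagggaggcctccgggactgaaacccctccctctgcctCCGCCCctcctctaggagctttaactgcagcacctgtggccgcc
Each holds 1 GC box on the opposite strand, 58 bases before the start in Epcam and 44 in Cldn4. Cldn4 also holds 2 AP-1 matches, 240 and 158 bases before the start. A RefSeq promoter was matched for 6 of the 8 genes. A match is a run of letters and was not tested for binding.

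Epcam (ENSMUSG00000045394, chr17:87635979-87651129, plus strand) was counted 442 times over the 8 libraries. It had 0.572 and 0.81 CPM in control, 0.177 and 0.0724 in SLIT2, 1.05 and 1.43 in APAP, and 0.375 and 0.409 in SLIT2+APAP. The 4 groups did not overlap. With SLIT2 alone Epcam was lower, at a log2 fold change of -2.42 ± 0.54 (adjusted p = 0.006469), on 12 and 4 counts in the SLIT2 libraries, and all 19 alternatives called it. Against APAP, SLIT2+APAP stood at -1.66 ± 0.43 (adjusted p = 0.04247). In 5 of 18 alternatives this was called, and of the fits that left out a library the one without APAP 3 called it (adjusted p over alternatives from 0.02374 to 0.246). APAP differed from control by 0.84 ± 0.41 (adjusted p = 0.2535) and SLIT2+APAP by -0.82 ± 0.44 (0.3524).

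Cldn4 (ENSMUSG00000047501, chr5:134945119-134946934, minus strand) rested on 47 counts in all. These were 9 and 3 in control, 11 and 24 in APAP, and 0 in each SLIT2 and each SLIT2+APAP library. It passed the filter, which asks for 0.118 CPM on library totals in 2 libraries, through the APAP group alone, so a difference from APAP was built into its being tested. Taking 3 counts over a group as the floor, Cldn4 was at least 11.3-fold lower in SLIT2+APAP than in APAP (adjusted p = 0.04524; called in 3 of 16 alternatives, adjusted p from 0.04203 to 0.2454). Leaving out any library other than APAP 3 ended the call. Against control it was at least 2.75-fold lower in SLIT2 (adjusted p = 0.09251) and at least 3.97-fold lower in SLIT2+APAP (0.2103). The SLIT2 libraries had the fewest counts outside mitochondrial genes, which bears on how low a level they could show.

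The keratins of duct cells and Krt23 were called in none of the 5 comparisons. Krt19 (ENSMUSG00000020911, chr11:100140810-100148665, minus strand) had 0.715 and 0.62 CPM in control, 0.826 and 0.507 in SLIT2, 0.524 and 1.54 in APAP, and 0.426 and 0.532 in SLIT2+APAP. All groups but SLIT2+APAP against control overlapped. Its log2 fold change was 0.01 ± 0.56 with SLIT2, 0.65 ± 0.54 with acetaminophen (adjusted p = 0.4861) and -1.12 ± 0.55 for SLIT2+APAP against APAP (adjusted p = 0.1982). Over the fits that left out a library the value with SLIT2 lay between -0.42 and 0.34. Without APAP 4 the value with acetaminophen was -0.36.

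Krt7 (ENSMUSG00000023039, chr15:101411043-101430313, plus strand), the type II partner in duct cells, had 1.84 and 4.03 CPM in control, 3.24 and 7.04 in SLIT2, 1.26 and 1.27 in APAP, and 2.42 and 1.17 in SLIT2+APAP. Both of its APAP libraries lay below both controls, at a log2 fold change of -1.21 ± 0.55 that was not called (adjusted p = 0.2177). The differences of 0.81 ± 0.53 with SLIT2 (adjusted p = 0.2295) and 0.49 ± 0.55 for SLIT2+APAP against APAP (0.5644) were not called. Krt23 (ENSMUSG00000006777, chr11:99477974-99493137, minus strand) had 0.644 and 0.431 CPM in control, 0.413 and 0.272 in SLIT2, 1.25 and 0.359 in APAP, and 0.138 and 0.307 in SLIT2+APAP. Its APAP libraries lay on both sides of control, and SLIT2+APAP stood at -1.8 ± 0.7 against APAP without a call (adjusted p = 0.1169). Without APAP 4, that difference was -2.43 and called (adjusted p = 0.009196).

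Other ductular genes were read from a list of 26, of which 22 passed the filter. None was called with acetaminophen or in SLIT2+APAP against control (median log2 fold change 0.78 and -0.3). Genes of the list were called in both comparisons when APAP 3 or APAP 4 was left out, but calls over all genes rose in those fits too. With SLIT2 alone, 9 were higher and 3 lower, beside 27.3% and 27.6% of all genes. The 4 with the smallest p were all higher: the integrin Itgb6 (1.25 and 0.915 CPM in control, 24.5 and 33.8 in SLIT2; log2 4.75 ± 0.33), the transcription factor Sox4 (3.87 ± 0.36), Bicc1, an RNA-binding protein tied to cystic kidney disease (2.69 ± 0.34), and the integrin Itgb4 (3.92 ± 0.54). The 3 lower genes, named after their values were seen, were the water channel Aqp1 (-3.26 ± 0.51), osteopontin Spp1 and Cd24a. Leaving out Control 1 or Control 2 reduced the 9 higher calls, and also the calls over all genes.

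Against APAP, SLIT2+APAP had 2 ductular genes higher and 4 lower, beside 6.28% and 7.63% of all genes. Fewer were called when either SLIT2+APAP library was left out and more when APAP 3 or APAP 4 was, as over all genes. The ductular genes with the smallest p were Itgb6, higher by 2.98 ± 0.33, and Dmbt1 (-6.87 ± 1.48), Cd24a (-2.05 ± 0.41) and Aqp1 (-2.29 ± 0.48). Dmbt1, a mucosal glycoprotein, had 2.02 and 3.59 CPM in APAP and 0.025 and 0.0205 in SLIT2+APAP. Its call as higher with SLIT2 alone came from 2.77 CPM in SLIT2 1 beside 0.0543 in SLIT2 2. Itgb6 and Sox4 were higher and Aqp1 and Cd24a lower with SLIT2 in both settings, with and without acetaminophen.

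Notch signalling through Jag1 and its targets, and the Hippo coactivators Yap1 and Wwtr1, are known to steer cells towards the duct fate. Of 19 genes of both pathways, 0 were called with acetaminophen, 5 were higher and 4 lower with SLIT2, and 1 was lower in SLIT2+APAP against APAP. Without APAP 4, genes of the list were called with acetaminophen, in a fit that called many more of all genes. With SLIT2 27.3% of all genes were called higher and 27.6% lower, so the SLIT2 counts lie near the background share. Against APAP 7.63% of all genes were called lower. The Notch target Hes1 was higher with SLIT2 (8.08 and 6.42 CPM in control, 39.5 and 77.4 in SLIT2; 3.01 ± 0.51), as was the receptor Notch3 (1.49 ± 0.37), while the YAP target Ctgf (-2.02 ± 0.37) and the kinase Lats2 (-0.92 ± 0.27) were lower. Beyond these 4 of smallest p, Jag1, Tead1 and Amotl2 were called higher and Hey1 and Wwtr1 lower, so each pathway had calls in both directions. Without Control 1 or Control 2 the list's counts with SLIT2 fell, as did the calls over all genes. With scaling to library totals the list's counts were 6 and 1. The 1 gene lower against APAP was the YAP target Cyr61, with 66.0 and 15.3 CPM in APAP and 6.41 and 7.79 in SLIT2+APAP (-2.52 ± 0.59, adjusted p = 0.03125). In the interaction 2 were higher and 4 lower, among them Notch3 (-2.44 ± 0.52), Hes1 (-3.18 ± 0.68), Rbpj (2.27 ± 0.61) and Tead1 (-1.77 ± 0.47), beside 15.5% and 13.4% of all genes; without either control library or without SLIT2+APAP 1 none was called.

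Keratin filaments are anchored at desmosomes by desmoplakin (Dsp), plakoglobin (Jup) and the plakins. In this list of 12 genes Dsp alone was called with acetaminophen, beside 0.332% of all genes higher and 0.456% lower. With scaling to library totals 3 were called higher, and without the SLIT2 libraries none was. More were called when APAP 3 or APAP 4 was left out, as over all genes. The Dsp call was lost without Control 1 or without any 1 library from SLIT2-treated mice. Dsp had 11.7 and 11.3 CPM in control, 30.8 and 27.9 in APAP, 8.16 and 7.58 in SLIT2+APAP, and 4.08 and 3.28 in SLIT2. That is the same group order as Krt8, with no overlap. Epcam and the junction gene F11r had this order too, and the share of all genes with it was not counted. Dsp was higher by 1.35 ± 0.21 with acetaminophen (adjusted p = 0.04339), lower by a log2 value of -1.64 ± 0.21 with SLIT2 (0.0005101) and at -1.9 ± 0.21 in SLIT2+APAP against APAP (0.005109). With SLIT2 alone 3 of the 12 were higher and 2 lower, no more than the 27.3% and 27.6% of all genes: Pkp4 rose (1.4 ± 0.2), as did periplakin Ppl (1.5 ± 0.4), and Jup fell (-1.07 ± 0.2). Against APAP 0 were higher and 3 lower, Dsp, Jup (-0.9 ± 0.19) and envoplakin Evpl (-2.7 ± 0.73), beside 6.28% and 7.63% of all genes. With library totals 1 was lower. The list's count fell without SLIT2+APAP 1 or SLIT2+APAP 2 and rose without APAP 4, as did the calls over all genes.

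Among 18 other epithelial junction genes, 0 were higher and 6 lower with SLIT2 (median log2 fold change -1.1), where 27.6% of all genes were lower. In SLIT2+APAP against APAP the counts were 0 and 2 (median -0.03), beside 6.28% and 7.63% of all genes. With acetaminophen 0 were called. Without APAP 4 genes of the list were called both higher and lower, in a fit that called many more of all genes. The adhesion molecule F11r, known as JAM-A, had 27.8 and 31.9 CPM in control, 7.59 and 7.24 in SLIT2, 55.4 and 57.0 in APAP, and 25.8 and 20.8 in SLIT2+APAP. It was lower with SLIT2 at -2.01 ± 0.21 and against APAP at -1.27 ± 0.2. The claudins Cldn12 (-2.28 ± 0.34) and Cldn2 (-2.15 ± 0.45) were lower with SLIT2 alone, and Cldn14 had 0 counts in both SLIT2 libraries. Against APAP, Cldn14 stood at -4.58 ± 0.89. The count with SLIT2 fell without SLIT2 2 and rose when APAP 3 or APAP 4 was left out, and the calls over all genes moved likewise. Against APAP the list's count rose when APAP 3 or APAP 4 was left out, again with more calls over all genes.

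The other keratins, those of stratified epithelia among them, were low. Of 15 listed, 13 were in the table, 4 passed the filter and 0 were called in any of the 5 comparisons. Their summed abundance lay between 2.33 and 3.5 CPM in all 8 libraries.

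**Figure D3:**
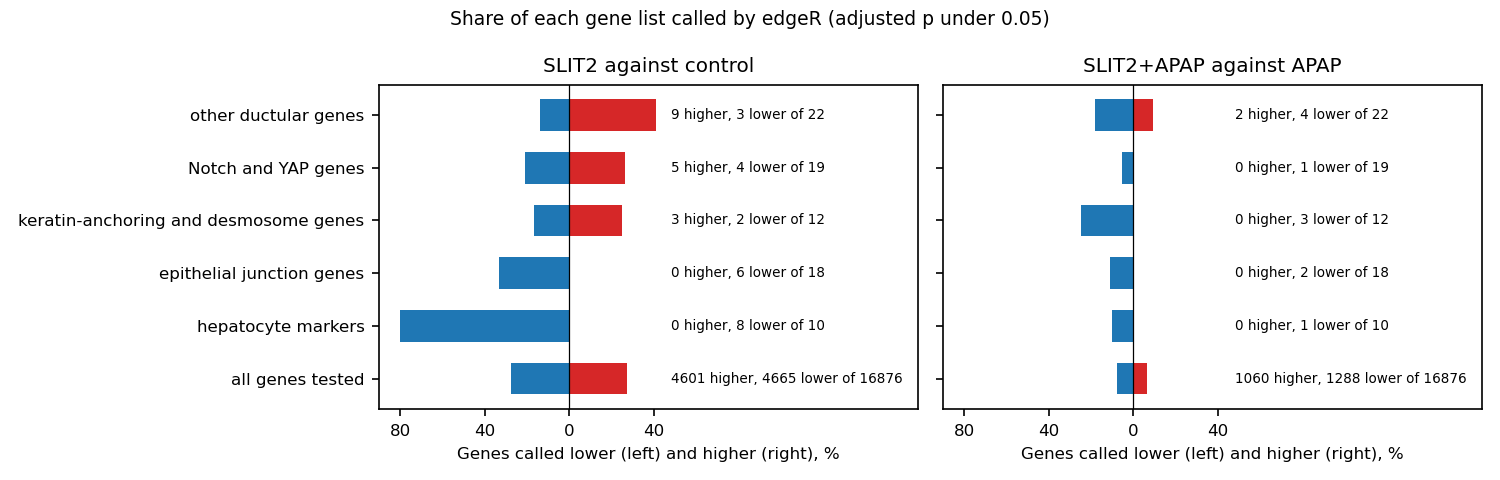
Share of each gene list called lower (left, blue) and higher (right, red) in percent of the genes tested, for SLIT2 against control and SLIT2+APAP against APAP, with the counts printed beside the bars and all 16876 genes in the last row. With SLIT2 alone 8 of 10 hepatocyte markers were lower, beside 27.6% of all genes, and 9 of 22 other ductular genes higher, beside 27.3%.

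Hepatocytes make Krt8 and Krt18, of which Krt8 was called lower with SLIT2 and Krt18 was not. In the same comparison 8 of 10 hepatocyte markers were called lower, beside 27.6% of all genes. Those markers with the smallest p were Asgr1, Ttr, Cyp2e1 and Apob, and the list's median was -2.53. In SLIT2+APAP against APAP, 1 of 10 hepatocyte markers was lower (Cyp2e1, median -0.77), beside 7.63% of all genes. Mesothelial cells of the liver capsule also make Krt8, Krt18, Krt19 and Krt7. Their 6 markers summed to 6.23 and 3.22 CPM in control, 10.1 and 11.1 in SLIT2, 5.29 and 0.894 in APAP and 3.7 and 3.12 in SLIT2+APAP. Wt1, the highest of the 6 by its mean over all 8 libraries, was called higher with SLIT2, at 9.13 and 9.41 CPM against 0.393 and 0.368 in control, where it lay below Gpm6a, Upk3b and Msln, while Gpm6a had 0 counts in both SLIT2 libraries and Upk1b in SLIT2 1. Intestinal markers summed to 14.6 and 13.1 CPM in control, 73.8 and 34.0 in SLIT2, 26.9 and 21.8 in APAP, and 23.1 and 22.6 in SLIT2+APAP. The sums are mostly Lgals4, at 73.0 and 33.7 CPM in SLIT2, while Tff3 of the same list was called lower there (1.07 and 2.22 CPM in control, 0 and 0.199 in SLIT2). Pancreatic acinar markers, led by Cela2a, stayed under 1 CPM in sum in every library. The part of these cells in the values of the 8 genes was not tested.

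Among markers of cells without these keratins (the gene named leads by its mean over all libraries), those of neutrophils (S100a9) summed to 19.3 and 5.62 CPM in APAP and to between 1.48 and 5.15 elsewhere. Mpo of that list had 0.0873 and 0.0486 CPM in APAP, below the 0.119 and 0.0946 in control. In SLIT2+APAP against APAP, S100a9 was called lower and Mpo higher. Macrophage markers (Cd5l) summed to 69.6 and 91.7 CPM in control, 42.3 and 46.1 in SLIT2, 103 and 93.6 in APAP, and 75.9 and 72.6 in SLIT2+APAP. Stellate cell markers (Dcn) were lowest in sum in SLIT2, at 84.5 and 72.1 CPM, against 108 to 187 elsewhere. The 187 was Control 1, where Des stood at 46.2 CPM, against 7.82 in Control 2. Means of Col1a1 (2.23 CPM in control, 4.29 in SLIT2) and Pdgfrb (2.04 and 3.13) went the other way, without a call. Endothelial markers, led over all libraries by Stab2, reached 88.2 CPM in APAP 3, where Lyve1 was highest at 38.4, and 26.2 in APAP 4. Set beside Sox9, the library with the highest Sox9, APAP 3, was also the highest for the summed neutrophil, endothelial, macrophage and hepatocyte markers. SLIT2 1 and SLIT2 2, the next highest in Sox9 at 14.9 and 20.7 CPM, were the lowest for summed macrophage and hepatocyte markers. The part of those cells was not tested.

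APAP 3 and APAP 4 differed along these lists. In APAP 3, 14 of 18 junction genes were lower than in APAP 4 (median log2 difference -1.14), as were 17 of 22 ductular genes (-0.46) and 5 of the 8 genes of the group (-0.21), while 47.4% of all genes were lower (0.04). All 5 endothelial markers were higher in APAP 3 (1.37). Sox9, Krt8 and Krt23 were higher in APAP 3, and Krt18, Krt19, Epcam and Cldn4 higher in APAP 4, with Krt7 nearly equal. Cdh1, the E-cadherin of epithelial contacts, chosen after its values were seen, had 9.63 CPM in APAP 3 and 39.8 in APAP 4, and Cldn1, chosen likewise, had 8.72 and 61.6.

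The genes whose log2(CPM + 1) values ran closest to each member over the 8 libraries were sought among 8035 protein-coding genes with a mean of at least 5 CPM. These are Pearson correlations over 4 pairs of libraries that share their group, and they describe the pattern without a test. For Krt8 they were Coq7 (r = 0.997), a ubiquinone synthesis enzyme, and Gars (0.995), a glycyl-tRNA synthetase. Coq7 had 22.0 and 22.0 CPM in control, 4.87 and 5.11 in SLIT2, 39.8 and 26.7 in APAP, and 14.6 and 15.9 in SLIT2+APAP, the group order of Krt8. For Krt18 they were Srp68 (0.974), of the signal recognition particle, and Prrc2b (0.97). For Sox9 they were Ndor1 (0.99), with 23.5 CPM in APAP 3 and 8.06 to 15.9 elsewhere, and Ldb1 (0.986). Epcam ran with Lrig1 and Pdxk (0.985 each), and Cldn4 with Stx18 (0.972) and Slc39a7 (0.967). Krt19 ran with Sel1l3 (0.968) and Tbc1d10b (0.946), Krt7 with Zfand4 (0.962) and Ttc39b (0.927), and Krt23 with Rsad2 (0.975) and Maf1 (0.961). No gene was nearest to 2 of the 8.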

How the data were processed

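Mouse liver RNA-seq (8 libraries, 4 groups of 2) was read from the authors' deposited table of raw counts, whole numbers per Ensembl gene, not normalized. Libraries were made from total RNA with a directional kit, per the labels' protocols. STAR 2.5.4, Cufflinks, Cuffdiff 2.2.1 and mm10 are named in the submitters' processing notes, with no role; how reads were counted, with which strand setting, is not given in the sources used here. Symbols and positions came from GENCODE M21 on GRCm38, the assembly mm10 names, which covered 97.1% of the genes. Total counts were 60.8 to 100.5 M per library, and floors cover counting error only, not the spread between the 2 libraries of a group.

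Counts were tested in R 4.3.3 with edgeR 4.0.16: filterByExpr, TMM scaling, a robust quasi-likelihood fit with 1 mean per group over all 8 libraries (4 residual degrees of freedom), and Benjamini-Hochberg adjustment over 16876 genes at 0.05. CPM uses the TMM-scaled library size. Alternatives were DESeq2 1.42.0 and its size factors, library totals, other filters, the older edgeR fit, subsets of libraries or genes, offsets for GC content, a replicate block and leaving out each library; fits without the block on the same 6 libraries, and list counts under the alternatives, were added after seeing the data. All 8 genes are given with every library. Of each list, counts and up to 4 called genes of smallest p are given, the highest gene for markers of other cell types, and for each of the 8 the 2 nearest genes by correlation. Members and lists were chosen with earlier results of these data known.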

Additional observations from a re-analysis of the deposited data

Results flagged for a closer look

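The effect of acetaminophen differed with SLIT2, by the test of the interaction, for 2 of the 8 genes, where 15.5% of all genes were called higher and 13.4% lower, so that 2 of 8 is near the background share. Sox9 had an interaction of -4.42 ± 0.89 on the log2 scale (SE; edgeR adjusted p = 0.01215): APAP exceeded control in both libraries, at 44.2 and 9.18 against 5.10 and 3.77 CPM, and SLIT2+APAP, at 4.32 and 5.67, lay below SLIT2, at 14.9 and 20.7. Krt8 had an interaction of 1.26 ± 0.39 (adjusted p = 0.04597): it had 24.3 and 29.4 CPM in SLIT2 and 109 and 121 in SLIT2+APAP, a wider step on the log2 scale than between 168 and 218 in control and 424 and 271 in APAP. The Krt8 call was lost in 6 of 8 fits that left out a library, and the Sox9 call in 3. Both interaction values draw on all 4 groups, among them the SLIT2 libraries, in which mitochondrially encoded genes took 64.6% of counts. No group had the 4 libraries that a check for single outlying libraries needs.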

How the results depend on the processing

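The precision is limited by 2 libraries per group and, for Cldn4 and Epcam, by counts of 0 to 147 per library. Of the 8 genes, 3 were called in SLIT2 against control, a count that stayed within 1.5 times under every alternative (2 to 3 when a library was left out). The count of 5 in SLIT2+APAP against APAP includes Cldn4, which was tested only through its APAP counts; the count was 2 with library totals, 2 without a count filter, 3 with a minimum of 1 CPM in 2 libraries, 2 with GC offsets, 1 without the SLIT2 libraries, 0 with only the 4 libraries compared, and 0 to 5 when a library was left out (0 without SLIT2+APAP 1 or SLIT2+APAP 2). The count of 0 in APAP against control was 2 with DESeq2 and 0 to 2 when a library was left out. In SLIT2+APAP against control the 0 became 1 (Krt8) with only the 4 libraries compared, and 0 to 1 when a library was left out. The 2 interaction calls fell to 1 with a minimum of 1 CPM or with protein-coding genes only, and ran from 0 to 2 when a library was left out. The cause of these changes was not tested, beyond there being fewer samples or fewer genes in the fit.

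Replicate numbers were not shown to pair libraries: same-numbered deviations correlated at 0.089, -0.039 and 0.081 between groups, and the APAP libraries share no number with the rest. With the replicate block over the 6 libraries numbered 1 and 2, 4 of the 8 genes were called in SLIT2 against control (Krt18 added, -0.47, adjusted p = 0.04938) and 1 in SLIT2+APAP against control. The same 6 libraries without the block gave 3 and 1. The block moved all genes called from 9266 to 11062 and from 361 to 2494, and the same libraries without it gave 11176 and 2582.

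Directions turned only for uncalled values. Krt19 in SLIT2 against control went from 0.01 to -0.05 without a filter, -0.06 without mitochondrial genes and 0 with GC offsets, and to between -0.42 and 0.34 when a library was left out. Leaving out a library also gave ranges across 0 in APAP against control for Krt23 (-0.57 to 1.2) and Krt19 (-0.36 to 1.21), in SLIT2+APAP against APAP for Krt7 (-0.11 to 0.94), in SLIT2+APAP against control for Krt18 (-0.2 to 0.25), Krt7 (-1.33 to 0.01) and Sox9 (-0.04 to 0.4), and in the interaction for Krt7 (-1 to 0.36). Over all genes, the 133 calls in APAP against control ran from 0 to 5181 over the alternatives (1836 with DESeq2, 235 with library totals, 205 without a filter, 68 with GC offsets, 54 with the older edgeR fit, 0 with only the 4 libraries compared and 0 without the SLIT2 libraries). The 2348 in SLIT2+APAP against APAP ran from 1 (only the 4 libraries compared) to 6134, the 361 in SLIT2+APAP against control from 2 to 4246, and the 4867 of the interaction from 1002 to 8303. DESeq2 made 3532 and 1455 calls in the first 2 of these.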
